A study of Mus musculus with 6 samples.

Results

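The mitochondrial ribosomal protein genes are the nuclear genes for the protein subunits of the ribosome inside mitochondria. They were taken as all protein-coding genes of the deposited table with a symbol that starts with Mrpl or Mrps and a number, and 78 of the 25631 listed genes met this rule, from 17773 protein-coding genes. RNA was sequenced from oocytes of naturally aged ICR mice, 14 months old, whose ovaries had been stimulated with equine chorionic gonadotropin, and the oocytes were freed from large antral follicles by puncture. Mice of the aminophylline group, behind 3 libraries, had 4.0 mM aminophylline, a theophylline derivative that inhibits phosphodiesterases, in their drinking water for 1 week and plain water for the 3 weeks after it. Mice of the control group, behind the other 3 libraries (labelled aged and untreated), were of the same age and had plain water throughout, and no young group is part of the comparison. How many mice or oocytes went into a library is not stated, so the libraries of a group were taken as separate samples and the p-values measure the spread between them, which may be technical. Because each library is a bulk sample, fewer cells with a message and less of that message per cell cannot be told apart.

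The mitochondrial ribosome translates the few messages encoded by mitochondrial DNA, all of them for subunits of the respiratory chain and ATP synthase. Its RNA comes from mitochondrial DNA, while every protein of its large and small subunit is encoded in the nucleus, made in the cytosol and imported. Some of these proteins have homologues in bacterial ribosomes and others are specific to mitochondria. The oocyte holds the mitochondria that pass to the embryo, and fully grown oocytes store messages while transcription is largely silent.

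Of the 78 members, 51 encode proteins of the large subunit and 26 proteins of the small subunit. The count for the large subunit includes Mrps18a and Mrps30, whose proteins sit there in mammals despite their symbols. The remaining gene, Mrps36, encodes a component of the alpha-ketoglutarate dehydrogenase complex rather than a ribosomal subunit and was kept because the rule names it. In the RefSeq annotation of GRCm38.p6, the build named in the submitters' processing notes, the members lie on 17 chromosomes, with 11 of them on chromosome 11. By GENCODE vM21, 18 members (23.1%) had another protein-coding gene starting on the opposite strand, at most 1000 bases upstream of their own start. This arrangement was found for 6.79% of the 21938 annotated protein-coding genes outside the mitochondrial chromosome. These head-to-head neighbours include Fau beside Mrpl49, Psma2 beside Mrpl32, Sars2 beside Mrps12 and Helq beside Mrps18c, with 59, 75, 172 and 29 bases between the starts. In the same annotation, exons of 28 members overlap a gene on the opposite strand and those of 8 a gene on the same strand. Mrpl46 and Mrps11 overlap each other on opposite strands and were not counted as head to head. Whether reads were counted by strand is not given in the sources used here, so reads of such overlaps cannot be told apart.

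A promoter window of 300 bases, 250 before the transcription start and 50 from it on, was found in the RefSeq-based table (GRCm38.p6) for 69 members and 14030 listed protein-coding genes. Some genes, among them Mrpl2 and Mrpl48, have several windows, and a gene was counted if any of its windows held the letters. Letters of an ETS factor site, the 6 bases CCGGAA on either strand, were present in 40 of the 69 members (58%) and in 24.9% of all listed genes. Within 100 bases of the start they were present in 38 members (55.1%) and in 18.4% of all genes. The nuclear respiratory factor NRF1 regulates many nuclear genes of mitochondria, and its letters GCGCANGCGC were present in 13 members (18.8%) against 8.77% of all genes. The YY1 letters AANATGGCGG were present in 7 members (10.1%) against 2.77%. The GC box GGGCGG, a Sp1 site, was present in 34 members (49.3%) against 57.6%. Of the 69 members, 8 had both ETS and NRF1 letters, 15 had ETS letters at 2 or more places in a window, and 21 had none of the ETS, NRF1 and YY1 letters. The same ETS letters were present in 54.8% of 62 cytosolic ribosomal protein genes and in 30.3% of 33 genes for subunits of respiratory complex I. A match shows only that the letters are there.

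**Figure D1:**
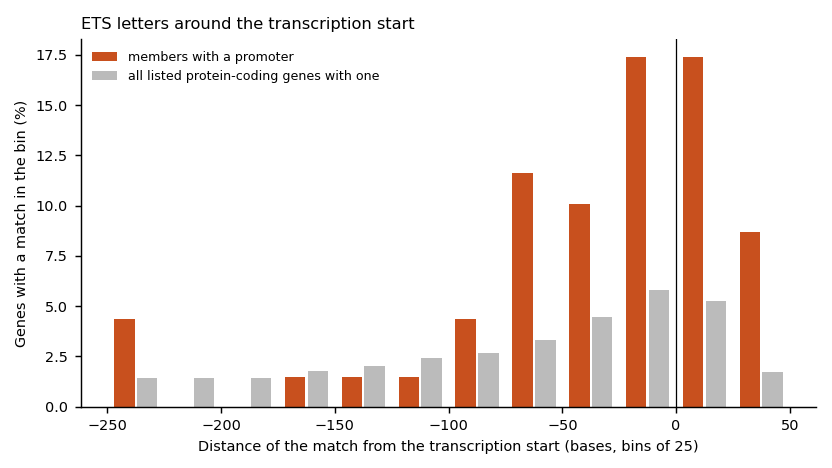
Share of genes with ETS letters (CCGGAA on either strand) by distance from the transcription start, in bins of 25 bases, for 69 members (orange) and 14030 listed protein-coding genes (grey). A gene with several windows counts in a bin if any of them has a match there, so a site can fall in several bins. In members the bins from -25 to -1 and from 0 to 24 each hold matches in 17.4% of genes, against 5.78% and 5.24% of all genes.

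The windows of 4 members are shown, 5′ to 3′ on the gene's strand, because they carry the 3 kinds of site in different arrangements and include the member with the smallest p below. Capitals mark ETS letters in all 4, the NRF1 letters in Mrps26 and the YY1 letters in Mrps27, and no 2 kinds of match overlap in them. The windows are chr14:54426659-54426958 for Mrpl52, chr2:130563507-130563806 for Mrps26, chr5:100798509-100798808 for Mrps18c and chr13:99344536-99344835 for Mrps27, all on the plus strand of GRCm38.p6.
Mrpl52: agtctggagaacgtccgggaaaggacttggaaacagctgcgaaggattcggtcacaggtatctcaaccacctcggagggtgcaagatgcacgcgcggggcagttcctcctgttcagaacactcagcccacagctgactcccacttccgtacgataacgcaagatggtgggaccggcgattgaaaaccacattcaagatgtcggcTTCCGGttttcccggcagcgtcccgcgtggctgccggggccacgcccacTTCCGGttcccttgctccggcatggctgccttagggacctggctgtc
Mrps26: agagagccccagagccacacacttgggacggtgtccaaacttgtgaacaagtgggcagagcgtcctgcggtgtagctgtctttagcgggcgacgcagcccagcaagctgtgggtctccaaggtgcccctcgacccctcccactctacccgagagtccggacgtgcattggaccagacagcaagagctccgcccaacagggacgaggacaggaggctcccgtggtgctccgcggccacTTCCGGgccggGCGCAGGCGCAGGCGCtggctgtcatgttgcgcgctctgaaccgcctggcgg
Mrps18c: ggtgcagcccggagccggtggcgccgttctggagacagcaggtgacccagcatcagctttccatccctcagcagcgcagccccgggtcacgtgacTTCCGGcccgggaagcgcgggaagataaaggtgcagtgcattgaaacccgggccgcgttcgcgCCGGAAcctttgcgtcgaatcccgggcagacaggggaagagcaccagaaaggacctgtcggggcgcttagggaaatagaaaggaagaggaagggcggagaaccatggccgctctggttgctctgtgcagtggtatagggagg
Mrps27: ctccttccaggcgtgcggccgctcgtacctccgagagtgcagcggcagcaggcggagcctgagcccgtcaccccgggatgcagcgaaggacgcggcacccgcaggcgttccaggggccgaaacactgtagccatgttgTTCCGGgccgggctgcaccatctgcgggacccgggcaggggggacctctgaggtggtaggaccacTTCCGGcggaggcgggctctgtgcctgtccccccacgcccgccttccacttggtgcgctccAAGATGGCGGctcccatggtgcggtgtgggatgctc
In Mrpl52 the ETS matches begin 46 bases before the start and 3 bases after it. In Mrps26 a match begins 13 bases before the start, followed by a pair of NRF1 matches that share bases. In Mrps18c both matches lie further upstream, beginning 155 and 92 bases before the start. In Mrps27 the YY1 match begins 14 bases after the start.

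The files hold FPKM, the reads of a gene scaled to its length and to the reads of the library. Behind every one of the 468 member values a whole number of reads could be recovered (tolerance 0.01 reads), with lengths and library totals derived from the same values. The libraries held 14112341 to 33641283 reads, the fewest in control library 2. Members had from 15 to 20987 reads in a library, and 3 of the 78 had fewer than 100 in some library. Oocyte markers were abundant, with 11 of 11 tested, and summed to between 18490 and 26380 FPKM in the control and between 19490 and 23420 in the aminophylline libraries. Markers of granulosa and cumulus cells summed to at most 18.1 and those of stroma and vessel to at most 7.48 FPKM in any library, and erythrocyte markers to at most 0.585. Control library 1 had the highest value of 8 of 9 macrophage markers, among them Lyz2 with 66.4 FPKM there and at most 0.573 in the other libraries. The macrophage list summed to 81.0 to 170 FPKM in the control and 81.1 to 100.5 in the aminophylline libraries, nearly all of it C1qb except in control library 1. Across all tested genes, which are not independent replicates, the log2 values of the control libraries correlated with each other at r = 0.970 to 0.977 and those of the aminophylline libraries at 0.984 to 0.989. Each control library correlated most with an aminophylline library, control library 1 at 0.978 and control library 2 at 0.990 with aminophylline library 1, and control library 3 at 0.985 with aminophylline library 3.

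Nearly all members were expressed in these oocytes. The mean FPKM over the 6 libraries was at least 100 for 29 members, between 10 and 100 for 43 and under 10 for 6, with a median of 69.9. The levels spanned a 1262-fold range, and the 10 highest members held 45.1% of the summed level. Large and small subunit genes had close medians, 69.3 and 69.6 FPKM. The filter for testing, 1 FPKM or more in 3 or more libraries, was passed by 77 members.

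**Figure D2:**
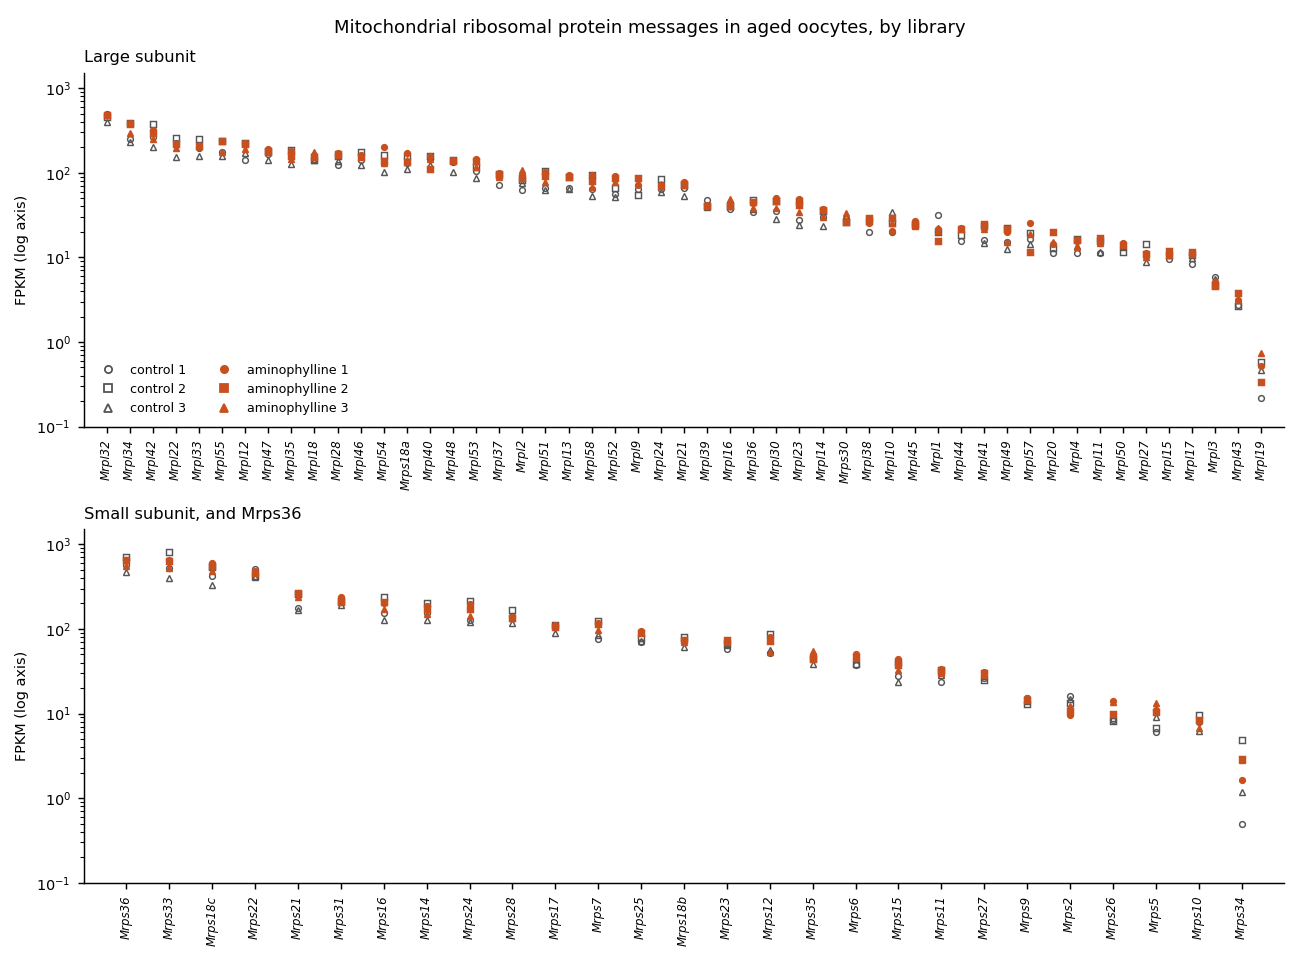
FPKM (log axis) of all 78 members in each library, ordered by their mean within the large subunit (top) and the small subunit with Mrps36 (bottom). Open grey symbols are control and filled orange symbols aminophylline libraries. Levels run from Mrps36 at a mean of 601 down to Mrpl19 at 0.477, and for most members the spread between libraries is small beside the range between genes.

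Mrps36 had the highest level, with 573, 708 and 476 FPKM in control libraries 1, 2 and 3 and 643, 653 and 555 in aminophylline libraries 1, 2 and 3. Mrps33, a mitochondria-specific protein of the small subunit, had 519, 809 and 397 FPKM in the controls and 654, 633 and 526 with aminophylline. For both genes control library 2 was highest and control library 3 lowest of all 6, so the control values enclosed the aminophylline values. Mrps18c followed with a mean of 487 FPKM, and Mrpl32, a large subunit protein whose maturation needs a mitochondrial protease, with 463. Mrps22, a mitochondria-specific protein of the small subunit, had a mean of 461 FPKM. The library values of Mrpl32 ran from 401 to 489 and those of Mrps22 from 415 to 516, so neighbours in this order did not differ beyond their spread.

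The lowest members were Mrps34 and Mrpl19. Mrpl19, a large subunit protein with a bacterial homologue, was the one member below the filter, with 0.219, 0.579 and 0.464 FPKM in the control and 0.522, 0.338 and 0.737 in the aminophylline libraries, from 37 to 113 reads. Mrps34, a mitochondria-specific protein of the small subunit, had 0.488, 4.88 and 1.17 FPKM in the control and 1.63, 2.87 and 2.83 in the aminophylline libraries, from 15 to 79 reads. Its highest and lowest values were both in the control group and 10-fold apart, where the median member had a 1.52-fold range over the libraries. Mrps34 has Eme2 head to head, 29 bases away, and exons that overlap Mapk8ip3 and Nme3.

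The level of a gene depends on the length that divides its reads. The length behind the deposited values was within a factor of 1.2 of the principal GENCODE transcript for 43 members and over 2 times longer for 10. It was 7525 bases for Mrpl14 against 645 in the principal transcript, and 8452 against 1288 for Mrpl4. Mrpl14 encodes a large subunit protein at the interface of the subunits. With the same reads divided by the principal length, its mean FPKM would be 375 in place of 32.1. That of Mrpl32, divided by 768 bases against 3013, would be 118 in place of 463. The median over the members would be 77.4. Reads were not recounted within the principal transcripts, so these values show only the effect of the length. The order of levels between genes thus rests in part on the annotation.

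With aminophylline most members had a slightly higher mean level. The median log2 fold change of the 77 tested members was 0.17, where that of all 10340 tested genes was 0.095, and 67 members (87%) had a value above 0 against 64.8% of all tested genes. Without control library 3 the medians changed order, with 0.10 for the members and 0.13 for all tested genes. Under an unadjusted limma p of 0.05, 5 members (6.49%) were higher, against 4.41% of all tested genes, and 0 were lower, against 2.84%. At an adjusted p under 0.05 the limma count was 0 of 77 members and 0% of all genes, and the smallest adjusted p of a member was 0.651. Every aminophylline library lay above every control library for 15 members (19.5%), against 7.51% of all tested genes, and below for 1 member, Mrps2 (1.3%), against 4.96%. For a single gene with 3 libraries against 3 the smallest exact permutation p is 0.1.

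**Figure D3:**
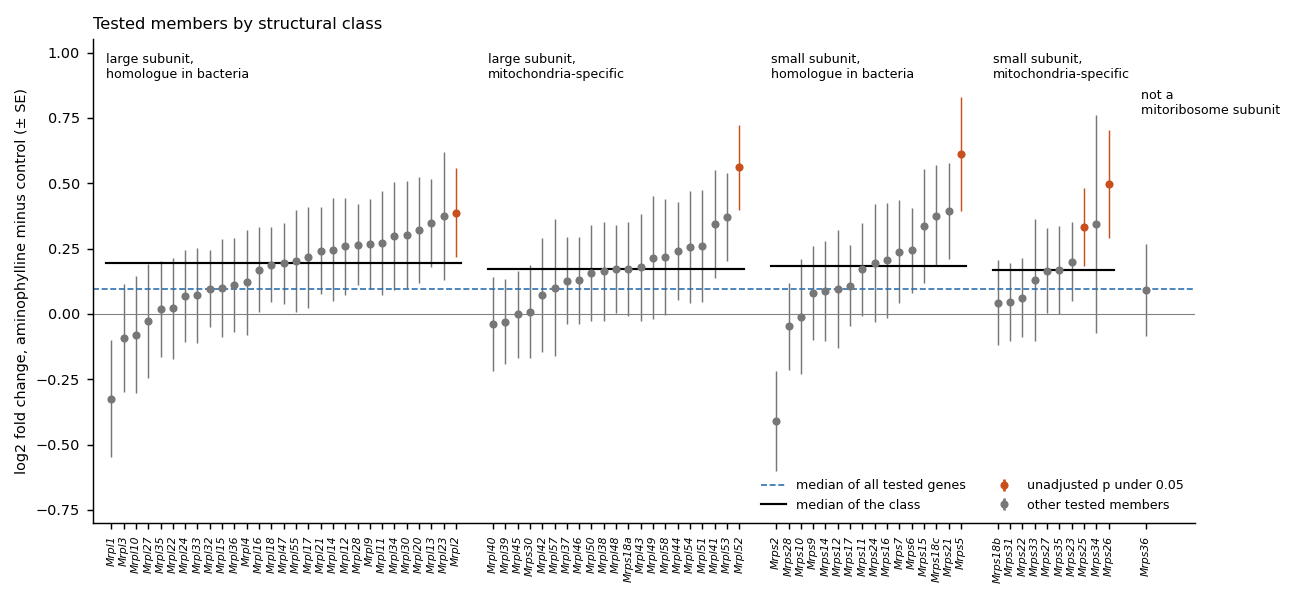
Log2 fold change (aminophylline minus control, on log2(FPKM + 1), ± SE) of the 77 tested members by structural class. Orange points have an unadjusted limma p under 0.05 (5 members, all above 0), black lines are class medians between 0.17 and 0.19, and the dashed line is the median of all tested genes, 0.095.

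The classes lay close together. The median log2 fold change was 0.19 for large subunit proteins with a bacterial homologue (25 of 29 tested above 0) and 0.17 for the mitochondria-specific ones (18 of 21). It was 0.18 for small subunit proteins with a bacterial homologue (13 of 16) and 0.17 for the mitochondria-specific ones (10 of 10). Mrps18a and Mrps18b, which descend from the bacterial protein S18, were counted among the mitochondria-specific proteins of their subunits. Each class had 1 or 2 members higher at an unadjusted limma p under 0.05. In the order given these were 3.45%, 4.76%, 6.25% and 20% of the class, against 4.41% of all tested genes. The ratio of summed FPKM of the small to the large subunit was 0.734, 0.758 and 0.704 in the control and 0.738, 0.741 and 0.716 in the aminophylline libraries, so the groups overlapped. Members with ETS letters had a median log2 fold change of 0.17 (n = 40) and those with a window but no such letters 0.19 (n = 29). Members with a head-to-head neighbour had 0.19 (n = 18) and the others 0.17 (n = 59 tested).

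Mrpl52 (NCBI gene 68836, chr14:54426909-54429750, plus strand), a mitochondria-specific protein of the large subunit, had the smallest p. Its FPKM was 56.1, 65.4 and 51.5 in the control and 91.0, 87.0 and 78 in the aminophylline libraries. The groups did not overlap, with means of 57.7 ± 7.05 (SD, n = 3) and 85.4 ± 6.68 (SD, n = 3). The log2 fold change was 0.56 (SE 0.163), with a limma adjusted p of 0.651. The unadjusted p stayed under 0.05 in 18 of 18 alternative analyses, over which the adjusted p ranged from 0.101 to 0.999. The message has 412 bases in the deposited table, and with a correction for gene length the log2 fold change was 0.38.

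Mrps5 (NCBI gene 77721, chr2:127587426-127603986, plus strand) encodes a small subunit protein near the path of the message. Its FPKM was 6.01, 6.72 and 9.06 in the control and 11.0, 10.4 and 13.2 in the aminophylline libraries, from 136 to 580 reads. Library 3 was the highest of each group and the groups did not overlap. The log2 fold change was 0.61 (SE 0.218), the largest among the tested members, with a limma adjusted p of 0.682. Its unadjusted p stayed under 0.05 in 16 of 18 alternatives.

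Mrps26 (NCBI gene 99045, chr2:130563757-130565394, plus strand), a mitochondria-specific small subunit protein whose window is printed above, had 8.28, 8.25 and 8.96 FPKM in the control and 13.95, 9.86 and 13.8 in the aminophylline libraries. Aminophylline library 2 lay close to the control libraries and the other 2 well above. The log2 fold change was 0.50 (SE 0.207), with a limma adjusted p of 0.682, and the unadjusted p was under 0.05 in 8 of 18 alternatives.

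Mrpl2 (NCBI gene 27398, chr17:46646172-46650132, plus strand), a conserved large subunit protein near the peptidyl transferase centre, had 62.0, 82.4 and 75.9 FPKM in the control and 93.8, 87.4 and 107 in the aminophylline libraries. Mrps25 (NCBI gene 64658, chr6:92169512-92184023, minus strand), a mitochondria-specific small subunit protein, had 70.0, 78.6 and 72.0 and then 95.5, 88.6 and 93.9. Neither gene's groups overlapped, and the log2 fold changes were 0.39 (SE 0.170, limma adjusted p = 0.684) and 0.33 (SE 0.149, limma adjusted p = 0.685). Each had an unadjusted p under 0.05 in 7 of 18 alternatives. Exons of Mrps25 overlap Nr2c2 on the other strand.

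The next members in order of p missed the unadjusted threshold of 0.05. Mrpl53, a mitochondria-specific protein at the stalk base, had 106, 117 and 87.6 FPKM in the control and 144, 139 and 117 in the aminophylline libraries, without overlap (log2 fold change 0.37, limma adjusted p = 0.685). Mrps21, a conserved small subunit protein, had 175, 256 and 168 and then 263, 269 and 241, where control library 2 lay above aminophylline library 3 (0.39, limma adjusted p = 0.688). Mrpl13, a conserved large subunit protein, had 66.7, 88.1 and 65.1 and then 94.9, 89.1 and 94.3, with control library 2 just below the aminophylline values (0.35, limma adjusted p = 0.688). In all 3 genes control library 2 was the highest of its group.

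**Figure D4:**
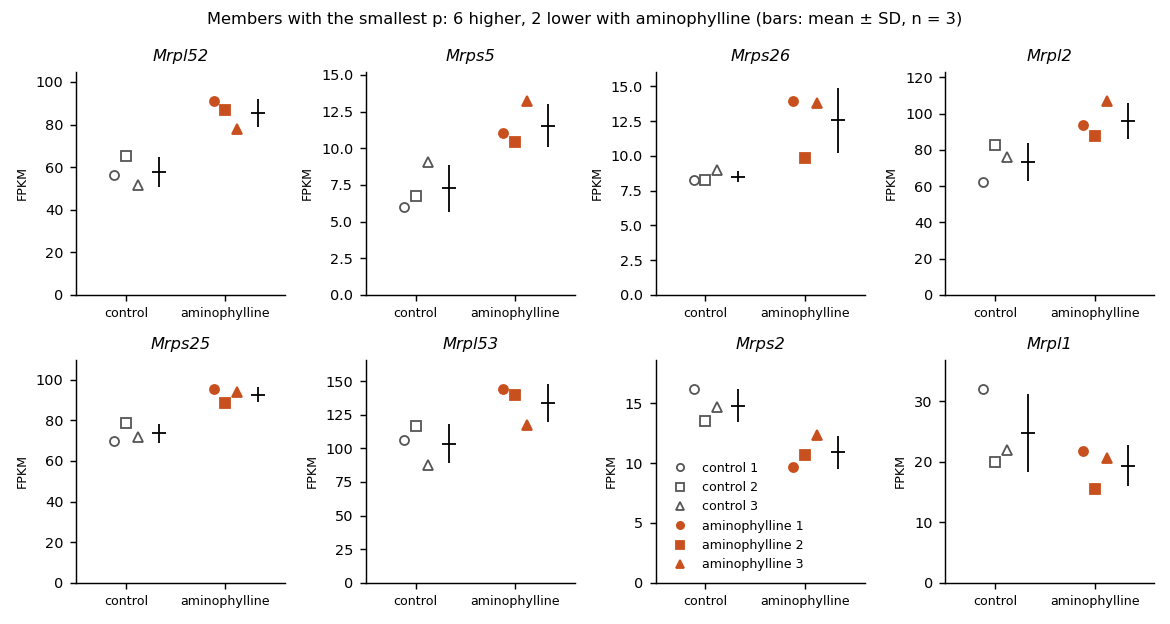
FPKM by library for the 6 members with the smallest p among those with a higher mean in the aminophylline group and the 2 among those with a lower one. Symbols are libraries 1, 2 and 3 of each group and bars show mean ± SD (n = 3). Values of the groups do not overlap for any of the 8 except Mrpl1, where control library 2 lies among the aminophylline values.

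Mrps2 (NCBI gene 118451, chr2:28465951-28471177, plus strand), a conserved small subunit protein, was the one member with every aminophylline library below every control library. Its FPKM was 16.2, 13.5 and 14.7 in the control and 9.66, 10.7 and 12.4 in the aminophylline libraries, from 470 to 1345 reads. The log2 fold change was -0.41 (SE 0.193, limma adjusted p = 0.688), and the unadjusted p was under 0.05 in 9 of 18 alternatives. Mrpl1, the protein of the L1 stalk through which tRNA leaves, had 32.0, 20 and 22.0 and then 21.8, 15.4 and 20.7 FPKM. The log2 fold change was -0.32 (SE 0.223, limma adjusted p = 0.728), and -0.13 without control library 1, its highest library. Mrpl3, Mrpl10 and Mrps28 followed with log2 fold changes of -0.094, -0.079 and -0.048, each smaller than its SE. Mrpl45, Mrps30 and Mrps10 had the smallest absolute values, -0.0009, 0.0079 and -0.010.

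The proteins of the L7/L12 stalk and its base recruit the translation factors. Mrpl12, which interacts with mitochondrial RNA polymerase as well as being the stalk protein, had 143, 223 and 173 FPKM in the control and 227, 221 and 190 in the aminophylline libraries. Mrpl11 had 11.2, 15.4 and 11.6 and then 14.8, 16.9 and 14.6, and Mrpl54 had 130, 163 and 101 and then 199, 140 and 132. In each of these genes control library 2 lay among or above the aminophylline values, and the log2 fold changes were 0.26, 0.27 and 0.26 (limma adjusted p = 0.733, 0.738 and 0.765). Mrpl10, the protein that anchors the stalk, had 19.99, 25.8 and 34.2 and then 20.4, 28.9 and 25.2. The stalk list of 5 had a median of 0.26 (0.42 without control library 2), the central protuberance list of 7 a median of 0.16 and the exit tunnel list of 6 a median of 0.13. None of the members of these 3 lists passed an unadjusted p of 0.05.

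The bacterial protein S18 has 3 descendants in mitochondria, of which mammals place Mrps18b and Mrps18c in the small and Mrps18a in the large subunit. Mrps18c was the most abundant, with 417, 540 and 327 FPKM in the control and 600, 550 and 487 in the aminophylline libraries. Mrps18a had 131, 157 and 110 and then 173, 133 and 141, and Mrps18b had 72.4, 79.7 and 60.6 and then 74.2, 73.9 and 69.7. Mrps18c had a log2 fold change of 0.37 (SE 0.193, limma adjusted p = 0.694), against 0.17 for Mrps18a and 0.042 for Mrps18b. In all 3 paralogs control library 3 was the lowest library.

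The libraries differed in the level of the members as a whole. Their summed FPKM was 7860, 9636 and 6859 in the control and 9548, 9060 and 8433 in the aminophylline libraries, or 1.44%, 1.64% and 1.34% and then 1.64%, 1.6% and 1.56% of all FPKM. Control library 2 had the highest sum of all and the other controls the lowest, so the groups overlapped through that library. It was the highest control library for 54 members (69.2%), against 26.8% of all tested genes. Of the 78 members, 42 had their lowest value in control library 3 and 23 in control library 1, and 29 had their highest in aminophylline library 1 and 24 in control library 2. Over all tested genes the lowest value fell in control library 3 for 17%, in control library 1 for 27.2% and in control library 2 for 29%. The highest value fell in aminophylline library 1 for 10.6% of them and in control library 2 for 11.9%. The members did not follow the other genes in control libraries 2 and 3, while their count lowest in control library 1 was near the share of all genes.

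**Figure D5:**
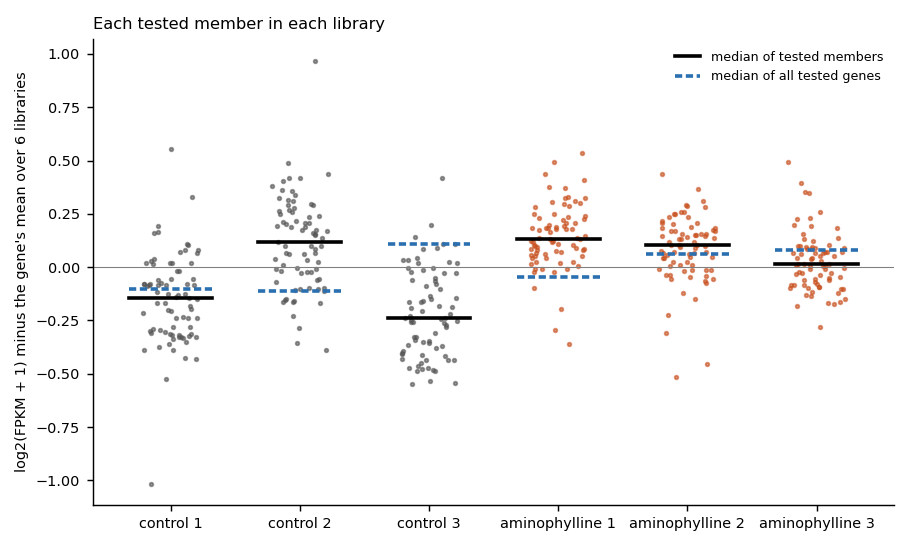
Deviation of each tested member's log2(FPKM + 1) from its own mean over the 6 libraries, by library. Black bars are medians of the 77 members (-0.15, 0.12 and -0.24 in the control and 0.13, 0.10 and 0.014 in the aminophylline libraries) and dashed blue bars medians of all tested genes. In control libraries 2 and 3 and aminophylline library 1 the members and all genes lie on opposite sides of 0.

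Without control library 2, 22 of the 77 members (28.6%) were higher at an unadjusted limma p under 0.05, against 8.37% of all tested genes, and 1 was lower, against 7.27%, with a median log2 fold change of 0.26. Every aminophylline library lay above control libraries 1 and 3 for 44 members (56.4%) and for 17.3% of all tested genes, a count chosen after the values were seen. Without control library 1, the library with macrophage markers, 1 member, Mrpl52, was higher (1.3%), against 2.07% of all tested genes. Without control library 3, 4 members (Mrpl2, Mrpl52, Mrps26 and Mrps5) were higher (5.19%), against 11.8% of all tested genes, and 0 were lower, against 2.47%. In that fit 58 members (75.3%) had a log2 fold change above 0, against 67.2% of all tested genes. The part of these libraries' differences in the result was not tested. With the replicate number as a block, 7 members were higher (9.09%), against 9.88% of all tested genes, and 1 was lower, against 4.3%. At an adjusted p under 0.05 that limma fit called 0 members and 0.455% of all genes, with a smallest adjusted member p of 0.132. With the block Mrps25 and the assembly factor Nsun4 were no longer under the unadjusted limma threshold of 0.05 (0.0624 and 0.0641), while Mrpl53, Mrps21, Mrps18c and Mrps2 came under it (0.0345, 0.0263, 0.0313 and 0.0495).

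Members with a shorter length in the deposited table had the larger median difference. For the 39 shorter by that length the median log2 fold change was 0.20, and for the 38 tested of the 39 longer ones it was 0.11. Split by the length of the principal transcript, a choice made after the values were seen, the medians were 0.20 and 0.16, and Mrps5, Mrps25 and Mrps26 fell among the longer. Across the 77 tested members the log2 fold change had a Spearman correlation of -0.314 with the length in the deposited table and of -0.214 with that of the principal transcript. With the deposited length the log2 difference of control library 2 from the mean of the other controls had a Spearman correlation of -0.290. Over all 10340 tested genes the correlations with the deposited length were -0.036 and -0.412, given as descriptions across genes that share their libraries. With a loess correction for length in each library the median of the members was 0.081 and that of all tested genes 0.0098. The cause of the relation to length was not tested.

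Proteins of the same ribosome that carry other symbols had log2 fold changes in the same range. Dap3, the GTP-binding protein of the small subunit head, had 78.2, 69.8 and 76.1 FPKM in the control and 89.9, 88.0 and 84.1 in the aminophylline libraries, without overlap (log2 fold change 0.22, limma adjusted p = 0.728). Chchd1 had 91.1, 107 and 83.4 and then 120, 116 and 112, also without overlap (0.31, limma adjusted p = 0.688). Aurkaip1 and Gadd45gip1 had log2 fold changes of 0.28 and 0.24, and Ptcd3 had -0.20. None of the 5 passed an unadjusted p of 0.05, and their median was 0.24.

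Genes that build and serve the ribosome did not all lie on the same side. Of 23 tested assembly factors, 4 were lower and 0 higher at an unadjusted limma p under 0.05, where 2.84% of all tested genes were lower and 4.41% higher, with a list median of 0.19 and 15 above 0. These counts turned on single control libraries. Leaving out control library 1 gave 1 lower and 0 higher, against 155 and 214 of all 10340 tested genes. Leaving out control library 3 gave 0 lower and 5 higher, against 2.47% and 11.8% of all tested genes. With the replicate block 3 were lower and 2, the RNA helicases Ddx28 and Dhx30, higher, against 4.3% and 9.88% of all tested genes. Fastkd2, an RNA-binding protein of large subunit assembly, had 18.5, 9.38 and 13.9 FPKM in the control and 8.77, 8.73 and 8.36 in the aminophylline libraries (log2 fold change -0.59, limma adjusted p = 0.682). Mterf3, of the mitochondrial termination factor family, had 5.46, 5.29 and 7.65 and then 3.88, 3.87 and 3.92, with tight aminophylline values below every control value (-0.53, limma adjusted p = 0.682, and -0.38 without control library 3). Nsun4, a methyltransferase of the small subunit RNA, had 103, 107 and 106 and then 86.2, 86.0 and 79.9 (-0.32, limma adjusted p = 0.684). Mettl15, which methylates the same RNA, had 11.1, 5.49 and 8.03 and then 4.33, 4.93 and 5.83 (-0.57, limma adjusted p = 0.685), and its groups overlapped. Without control library 1 the log2 fold changes of Fastkd2 and Mettl15 were -0.37 and -0.35.

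Of 16 tested translation factors, 1 (6.25%) was higher at an unadjusted limma p under 0.05, against 4.41% of all tested genes. It was Taco1, an activator of COX1 translation, with 2.42, 3.35 and 3.46 and then 4.64, 4.34 and 4.94 FPKM (log2 fold change 0.48, limma adjusted p = 0.684). Of 11 tested genes for the charging of mitochondrial tRNA, 1 was lower by the same measure, against 2.84% of all tested genes. It was the arginyl-tRNA synthetase Rars2, with 26.1, 18.8 and 24.9 and then 16.1, 16.2 and 15.8 (-0.50, limma adjusted p = 0.682). Neither gene passed without control library 1, where the log2 fold changes were 0.36 for Taco1 and -0.41 for Rars2. The medians of the 2 lists were 0.12 and 0.22. Among the 13 messages of mitochondrial DNA, which the ribosome translates, the median was -0.11 and 5 lay above 0. ND4L was higher at an unadjusted p under 0.05 (0.45, limma adjusted p = 0.682), but on 11, 2 and 8 reads in the control and 13, 10 and 13 in the aminophylline libraries. Few reads also lay behind ATP8 (7 to 23 in a library), ND3 (12 to 58), COX3 (70 to 96) and COX2 (84 to 162). CYTB had 808 to 1649 FPKM, so the list median mixes genes with very unlike levels. The cause of the low values was not tested. The 13 summed to 3481, 1940 and 2347 FPKM in the control and 2041, 2323 and 2680 in the aminophylline libraries, with control library 1 highest and control library 2 lowest.

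Set beside the members, the 82 tested genes for cytosolic ribosomal proteins had a median log2 fold change of 0.35, with 29 (35.4%) higher and 0 lower at an unadjusted limma p under 0.05. The 37 tested complex I subunits had a median of 0.26, with 2 (5.41%) higher and 0 lower. Of all tested genes 4.41% were higher and 2.84% lower. The summed FPKM of cytosolic ribosomal protein genes was 14159, 19224 and 12938 in the control and 19753, 19873 and 17986 in the aminophylline libraries, and that of complex I subunits was 8102, 11199 and 7183 and then 11094, 10847 and 9115. Control library 2 was again the highest control library for both sums and lay among or above the aminophylline values. Without it the medians were 0.52 for cytosolic ribosomal protein genes, 0.45 for complex I and 0.26 for the members. Without control library 3 they were 0.262, 0.126 and 0.101, against 0.135 for all tested genes. In that fit 10 of the 82 cytosolic ribosomal protein genes and 2 of the 37 complex I subunits were higher, against 11.8% of all tested genes. The difference between these lists was not tested.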

How the data were processed

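The members, lists and tests were chosen with earlier results of these data known. Per the deposited file, values are FPKM for each gene, for which the authors divided counted reads by gene length and library total, without scaling libraries to each other. The submitters' processing notes name GRCm38 and mm10, and the aligner, counting program and strand setting are not given in the sources used here. Groups and replicate numbers were taken from the labels.

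Reads were recovered as whole numbers from the FPKM (100% of 120146 values within 0.01 reads), with 99.573% to 99.631% of each library's reads on listed genes. Gene lengths and library totals were derived from the same values, so the share of whole numbers is not an independent check. Genes that reached 1 FPKM in 3 or more of the 6 libraries entered a two-sided limma 3.58.1 fit (R 4.3.3, variance trend with mean level) of log2(FPKM + 1), with Benjamini-Hochberg adjustment over all 10340 genes. Fold changes are on that scale, which understates those of low genes. Simulated reads with known changes were used to test the code. Tables and plots were made in Python 3.11.15, numpy 2.4.6, pandas and matplotlib 3.10.9.

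Both groups' labels number the libraries 1 to 3, and whether these numbers pair them was checked by the correlation of deviations from the group means, which was 0.138, 0.140 and 0.552 for same-numbered libraries. Every same-numbered pair exceeded 0.1, the rule set for pairing, but control library 2 correlated at 0.423 with aminophylline library 1. These values therefore do not settle whether the numbers pair the libraries. The main fit was unpaired, and the replicate number was used as a block only in alternatives.

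Genes were named by a rule: the 8 members with the smallest p among those higher and the 5 among those lower, the 5 with the highest level, the 3 with the smallest absolute change, those below the filter, the stalk and S18 lists, the 5 subunits with other symbols, and genes of the other lists with an unadjusted p under 0.05. Mrps34, Mrpl14, Mrpl4 and the head-to-head examples were named after their values were seen. Mrps27, Mrpl43, Mrpl46, Mrps11, Ddx28, Dhx30 and the markers Lyz2 and C1qb are also named outside this rule. The alternatives are given in the closing section, and the length of the principal transcript (GENCODE vM21), for levels and for the split of members by length, was added after the values were seen. Promoter windows came from RefSeq GRCm38.p6.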

Additional observations from a re-analysis of the deposited data

How the results depend on the processing

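The median log2 fold change of the members stayed above 0 in all 18 alternatives and moved by less than the spread of the library medians, but without control library 3 it lay below that of all tested genes (0.10 against 0.13). No member passed an adjusted p of 0.05 in any of them, the smallest being 0.0999. The count of members higher at an unadjusted p under 0.05 was 5, and became 3 with rescaling to TPM, 2 with length correction, 2 with median centring, 2 with quantile normalization, 3 with voom on the recovered reads and 14 with library weights. With the replicate block with length correction it was 3, and leaving out single libraries gave 1 to 22. The count lower, 0, became 1 with length correction, median centring, quantile normalization, no filter, the unmoderated model or the replicate block, 2 with library weights or with the replicate block with length correction, and 0 to 1 without single libraries. Beyond the calls of single genes given above, the replicate block changed no other call of a named gene.

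For all tested genes the count higher, 456, became 282 with TPM, 281 with median centring, 294 of 5885 with a mean FPKM of at least 5, 917 of 25631 without a filter, 1398 with library weights and 1022 with the replicate block, and 203 to 1219 without single libraries. The count lower, 294, became 502 with median centring, 528 with quantile normalization, 609 with length correction, 613 with library weights, 487 without a filter, 445 with the replicate block and 855 with length correction added to it, and 126 to 752 without single libraries. Of the 5 other pathway lists 7 genes had an unadjusted p under 0.05, and 4 did with TPM, median centring or the stricter mean filter, 19 with library weights, 13 in the unmoderated model, 12 with the replicate block and 1 to 11 without single libraries.

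The sign changed in at least 1 alternative for 10 of the 38 tested genes named by the rule, none of them with an unadjusted p under 0.05 at first. With length correction, alone or with the replicate block, the log2 fold change was -0.042 for Mrpl32, -0.022 for Mrps18b, -0.093 for Mrps22, -0.056 for Mrps30 and -0.052 for Mrps36. With quantile normalization it was -0.021 for Mrpl32, -0.064 for Mrps22, -0.026 for Mrps30 and -0.048 for Mrps36. With median centring it was -0.040 for Mrps18b, -0.020 for Mrps22 and -0.074 for Mrps30. With TPM it was -0.0005 for Mrps18b and -0.035 for Mrps30. With library weights it was 0.15 for Mrpl10, 0.026 for Mrps10, -0.028 for Mrps22 and -0.046 for Mrps30, and with voom 0.011 for Mrps10. Without single libraries the range was -0.26 to 0.11 for Mrpl10, -0.060 to 0.041 for Mrpl45, -0.15 to 0.12 for Mrps10, -0.065 to 0.13 for Mrps18b, -0.17 to 0.071 for Mrps28, -0.10 to 0.070 for Mrps30, -0.11 to 0.41 for Mrps33 and -0.050 to 0.24 for Mrps36. The causes were not tested. Depth was lowest in control library 2, and 3 members, Mrps34, Mrpl19 and Mrpl43, had under 100 reads in some library.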
